A study of Mus musculus with 9 samples.

Results

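The comparison described here sets C2C12 fibres grown in one-carbon metabolite medium (1C-MIM) against fibres in normal medium, across all genes measured. It uses 6 of the 9 libraries of the series: the 3 that the labels call 1C-MIM and the 3 they call control, while the 3 scramble libraries enter the statistical fit and are shown as a second reference level. C2C12 is an established mouse myoblast line, here kept in differentiation medium (DMEM with 2% fetal bovine serum) with day 3 as the labelled time, in every group. The 1C-MIM group had 6 metabolites tied to the one-carbon network added, the scramble group 6 unrelated metabolites, and control fibres none. The sources used here name neither these metabolites nor their doses. All groups are cultures of 1 clonal line, and no label says whether a group's libraries are separate cultures. If they are not, the p-values measure a spread between libraries that may be technical.

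Myoblasts of this line stop dividing in low serum, align and fuse into multinucleated fibres, while some mononucleated cells remain beside them. One-carbon metabolism passes single carbon units between folate and methionine intermediates and feeds nucleotide synthesis, methylation and antioxidant defence. Around the fibres, cells of this lineage secrete a matrix of collagens and proteoglycans, together with growth factors and the proteases that process both. Since a culture is a mixture, fewer cells of a type and less RNA per cell cannot be told apart in any value below.

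Fibre markers were abundant, and markers of undifferentiated muscle cells were present beside them. All 15 fibre markers were measured above the filter, and their summed level was 7650 to 12747 CPM (counts scaled to a common library size) in control and 10357 to 12383 in 1C-MIM. By the test given below, 4 of the 15 rose and 2 fell. The 12 markers of undifferentiated muscle cells, of which 10 were tested, summed to 1768 to 1967 CPM in control and 1961 to 2005 CPM in 1C-MIM. Of these 10, 4 rose and 2 fell, so the similar sums hold changes in both directions. Itga7 was the largest part of the sum, at 874, 565 and 594 CPM in control replicates 1 to 3, and Calcr was at 0 in every library. Whether these transcripts came from undifferentiated cells or from fibres was not tested. Markers of leukocytes summed to at most 4.87 CPM and those of endothelium to at most 5.11 CPM, with Tie1, Emcn, Erg, Sox17, Tyrobp, C1qa and Cd3e at 0 in every library. Depth was 29.0 to 33.2 M counts per library with 1 transcript per gene. Control replicate 1 stood apart from its group: the chi-square per degree of freedom of its counts was 40.9 and 45.3 against control replicates 2 and 3, which gave 7.34 against each other, while 1C-MIM pairs gave 4.09 to 12.8. In 1C-MIM and scramble too, the pairs with the library numbered 1 had the largest values, and on the second principal component (11.4% of the variance) control replicate 1 scored 27.8, 1C-MIM replicate 1 scored 7.17 and scramble replicate 1 scored 12.9, with the other 6 libraries below 0. The labels give no reason for this, and left-out-library values are given beside the results that move with them. Control replicate 1 was the highest control for every fibre marker except Tnni2 and Mylpf. Before normalization, Ttn stood at 1019, 250 and 185 CPM in control replicates 1 to 3 and at 559, 509 and 456 CPM in 1C-MIM. Acta1 stood at 2548, 1284 and 1218 CPM and at 3005, 2414 and 2303 CPM. The fibre sum of 12747 CPM was this control library, and control replicates 2 and 3 lay below every 1C-MIM library.

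Of 14006 genes tested, 6621 were called at an adjusted p below 0.05 (edgeR's quasi-likelihood test, Benjamini-Hochberg adjustment), which is 47.3%. By direction, 3212 were higher with 1C-MIM (22.9%) and 3409 lower (24.3%). Calls of at least 2-fold numbered 397 higher (2.83%) and 602 lower (4.3%), together 7.13% of genes. Without the 3 libraries numbered 1, 7918 were called, 3928 higher and 3990 lower. The percentages are the background for every count of genes given below. The changes were mostly small: the median size among called genes was 0.42 on the log2 scale, and the median log2 fold change over all genes was -0.01. At the far end, 34 genes were at least 8-fold higher and 14 at least 8-fold lower.

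Direction went with expression level. Among genes of 100 CPM or more, 776 were higher and 505 lower, and 55.5% were called. Between 20 and 100 CPM the counts were 1557 higher and 1357 lower. Below that the balance was the other way, with 510 higher and 845 lower at 5 to 20 CPM, 258 and 480 at 1 to 5 CPM, and 111 and 222 under 1 CPM, where 24.6% were called. The median standard error of a log2 fold change was 0.38 under 1 CPM and 0.06 at 100 CPM or more, so a small change could be called only in the more abundant genes.

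**Figure D1:**
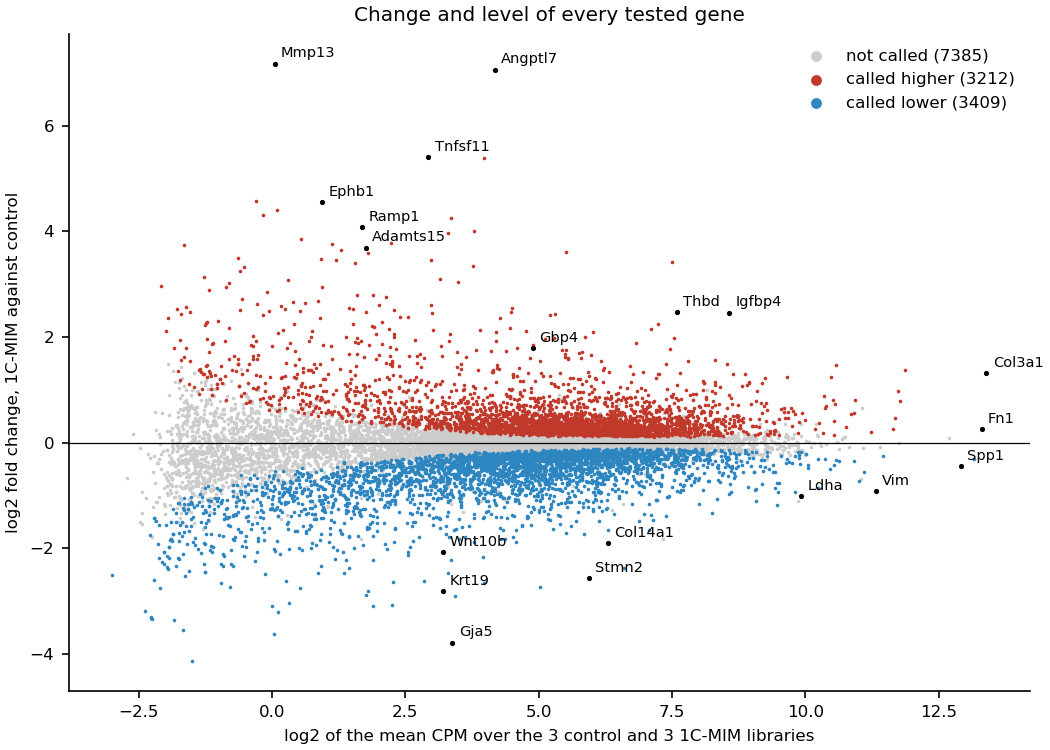
Each point is 1 of the 14006 tested genes, placed by the log2 of its mean CPM over the 6 libraries (x axis) and its log2 fold change of 1C-MIM against control (y axis). Red marks the 3212 genes called higher, blue the 3409 called lower and grey the rest, and Angptl7 and Mmp13 lie highest.

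Promoter sequence was available for 10872 of the tested genes (RefSeq, build GRCm38.p6, 250 bases before and 50 after the start), among them 281 of those at least 2-fold higher and 459 of those at least 2-fold lower. Letters searched on both strands were fixed binding-site cores. Shown are the 160 bases before the start of 5 genes whose values are given below, 5′ to 3′ on the gene's strand, to let each core be seen in place. Capitals mark ACGTG, a core bound by hypoxia-inducible factors, in the glycolysis genes Ldha and Pgk1, TTTGAA, the cell cycle homology element, in the division genes Mki67 and Cdkn3, and TGACTCA, the AP-1 site, in the collagenase gene Mmp13, or their reverse complements.
Ldha, chr7:46845644-46845803, plus strand: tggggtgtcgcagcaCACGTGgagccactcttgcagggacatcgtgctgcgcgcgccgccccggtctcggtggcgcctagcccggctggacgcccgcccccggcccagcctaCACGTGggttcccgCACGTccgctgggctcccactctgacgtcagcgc
Pgk1, chrX:106186940-106187099, plus strand: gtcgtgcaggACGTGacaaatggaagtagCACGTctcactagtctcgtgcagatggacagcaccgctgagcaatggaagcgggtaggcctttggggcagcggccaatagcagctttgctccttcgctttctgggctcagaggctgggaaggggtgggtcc
Mki67, chr7:135716380-135716539, minus strand: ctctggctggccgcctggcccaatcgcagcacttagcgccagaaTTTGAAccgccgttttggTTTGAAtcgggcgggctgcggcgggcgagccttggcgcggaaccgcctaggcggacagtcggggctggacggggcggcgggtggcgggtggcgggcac
Cdkn3, chr14:46760381-46760540, plus strand: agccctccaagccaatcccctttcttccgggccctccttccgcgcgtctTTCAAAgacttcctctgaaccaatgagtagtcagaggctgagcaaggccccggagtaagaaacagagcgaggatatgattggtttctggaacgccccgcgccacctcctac
Mmp13, chr9:7272354-7272513, plus strand: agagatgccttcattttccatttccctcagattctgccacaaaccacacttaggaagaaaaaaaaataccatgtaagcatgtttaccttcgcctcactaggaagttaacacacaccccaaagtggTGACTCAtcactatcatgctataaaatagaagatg

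In these windows Ldha holds 3 separate stretches with ACGTG, of which the first and second are the palindrome CACGTG and match on both strands. Pgk1 holds 2, Mki67 holds 2 stretches of TTTGAA, Cdkn3 1, and the AP-1 letters of Mmp13 begin 35 bases before the start. Over the full windows, TTTGAA was present in 11.9% of all tested genes with a promoter, in 18.3% of those at least 2-fold lower and in 13.2% of those at least 2-fold higher. ACGTG was present in 25.7% of all, 24.8% of the lower and 18.1% of the higher genes, so the lower genes held it about as often as genes at large. TGACTCA was present in 3.75%, 5.88% and 4.63%, in the same order. The GC box GGGCGG was present in 63.3% of all promoters, 53.2% of the lower and 43.4% of the higher genes, and median GC content was 60.7%, 58.0% and 58.0%. These shares are descriptions, and a match is not a bound site.

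Several of the 30 largest rises were in genes of secreted proteins or receptors, and others were not, among them the transcription factor gene Hlf and the cell cycle inhibitor gene Cdkn1c. Angptl7, an angiopoietin-like secreted protein, had 0.283, 0.403 and 0.119 CPM in control replicates 1 to 3 and 16.6, 37.8 and 53.7 CPM in 1C-MIM (log2 fold change 7.06 ± 0.62 (SE), adjusted p = 8.2e-05). Ramp1, the accessory protein that turns a calcitonin-family receptor into the receptor for CGRP, had 0.157, 0.279 and 0.625 CPM in control and 3.35, 5.80 and 9.15 CPM in 1C-MIM (4.08 ± 0.47, adjusted p = 9.8e-05). The 1C-MIM and control libraries did not overlap for either gene, which the rule for naming the 30 largest rises required. Over all tested genes, 55.5% showed no overlap, in either direction. For both genes the 1C-MIM libraries differed among themselves by over 2-fold. Nppc, the C-type natriuretic peptide, was more even, with 2.14, 1.67 and 1.76 CPM in control against 14.4, 16.4 and 16.5 CPM in 1C-MIM (3.09 ± 0.12, adjusted p = 1.1e-07). Scg2, a granin of secretory vesicles, rose from a mean of 0.511 to 5.40 CPM (3.39 ± 0.35), with 2.89 CPM in 1C-MIM replicate 1 and 6.25 and 7.07 in the others. Serpina6, which encodes the corticosteroid-binding globulin, stood at 0.315, 0.712 and 0.863 CPM in control and at 8.45, 8.91 and 9.02 CPM in 1C-MIM (3.79 ± 0.23, adjusted p = 1.1e-06).

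Enzymes of catecholamine synthesis were among the risers. Dbh, dopamine beta-hydroxylase, had 3.43, 1.76 and 2.08 CPM in control and 23.8, 17.2 and 18.6 CPM in 1C-MIM (3.04 ± 0.25, adjusted p = 1.4e-05), and Ddc, the aromatic amino acid decarboxylase, rose from 1.95 to 5.79 CPM (1.57 ± 0.23). Igfbp4, a carrier of insulin-like growth factors and the most abundant of the 30 largest rises, had 113, 124 and 113 CPM in control and 489.5, 613 and 825 CPM in 1C-MIM (2.46 ± 0.16, adjusted p = 7.0e-06). Pappa2, a protease that cuts such carriers, rose from 2.66 ± 0.29 to 10.2 ± 1.9 CPM (SD, n = 3 libraries; 1.94 ± 0.17). Dll1, a Notch ligand, had 13.5, 10.2 and 11.3 CPM in control and 60.4, 61.7 and 64.1 CPM in 1C-MIM (2.41 ± 0.11, adjusted p = 2.0e-07). Heyl, a Notch target, rose from 50.6 ± 10 to 225 ± 11 CPM (2.15 ± 0.15). Of the remaining large rises, Apod (2.76 ± 0.17), an apolipoprotein, Btla (2.60 ± 0.14), an immune receptor, Popdc2 (2.52 ± 0.17), a cyclic AMP-binding membrane protein, Lama1 (2.45 ± 0.17), a laminin chain, and Stk32b (3.59 ± 0.43), a kinase, started between 0.532 and 2.48 CPM.

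Some genes came up from next to nothing. Predicted genes and near-identical families (histones, ribosomal proteins, olfactory and vomeronasal receptors) were left out of this count. Under 0.2 CPM in control and at 1 CPM or more in 1C-MIM were 11 called genes, against 1 in the other direction. Mmp13, a collagenase, had 1 count in the 3 control libraries together and 181 in 1C-MIM, where it stood at 0.810, 1.62 and 3.74 CPM. The ratio of these counts was 197, with a 95% exact binomial interval of 34.8 to 7807 that covers counting error only. Ephb1, a receptor for ephrin-B ligands, had 0.252, 0.0929 and 0.119 CPM in control and 3.14, 3.87 and 4.07 CPM in 1C-MIM (4.55 ± 0.37, adjusted p = 5.8e-06). Vipr2, a receptor of vasoactive intestinal peptide, rose from 0.0821 to 1.69 CPM (4.30 ± 0.50), and Saa3, an acute-phase serum amyloid, from 0.185 to 2.72 CPM (3.85 ± 0.41). The gene that went the other way, Ccdc63, shares exon sequence with Myl2 on the opposite strand, and no source used here says whether strand entered the counting. The same limit holds for other genes named below with opposite-strand exon overlaps, among them Syn1, Bmp6, Cast, Sulf2, Rrp1b and Tmed1.

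The 1C-MIM libraries did not hold all these rises to the same degree. Among 210 genes of at least 5 CPM called at least 2-fold higher, 1C-MIM replicate 1 was the lowest of its group in 110, replicate 2 in 75 and replicate 3 in 25, and replicate 3 was the highest in 106. The widest spread of log2 CPM was in Angptl7, Stc1, Npy1r, Cd93 and Plac8. Cd93, a receptor of endothelial and myeloid cells, had 2.29, 6.15 and 7.34 CPM in 1C-MIM against 1.07, 0.712 and 0.506 CPM in control, and Plac8 had 3.14, 7.49 and 10.1 CPM against 1.23, 1.18 and 1.01 CPM. In these genes each 1C-MIM library still lay above each control library. Across the 210, the median SD of log2 CPM over the 1C-MIM libraries was 0.18.

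For the 30 largest rises and the 30 largest falls, all 3 scramble libraries lay on the control side of all 3 1C-MIM libraries in 30 of 30 and 30 of 30 genes. The scramble mean was 0.745 to 1.71 times the control mean among the rises and 0.683 to 1.61 times among the falls. The scramble and control comparisons with 1C-MIM share the 1C-MIM libraries. These genes were chosen as the largest changes without overlap between 1C-MIM and control. The share of all tested genes with scramble on the control side was not computed.

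**Figure D2:**
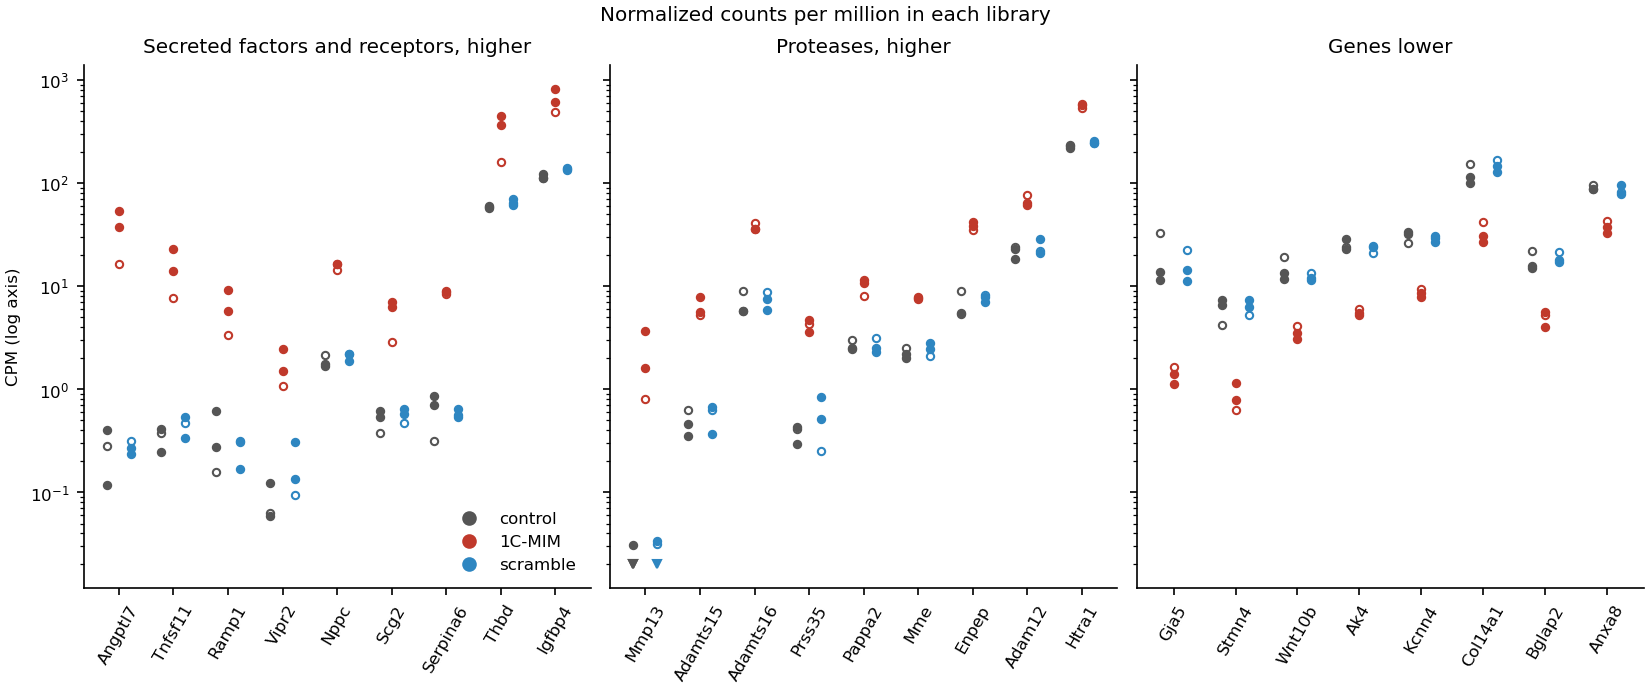
Normalized CPM (log axis) of 26 genes in each of the 9 libraries, grey for control, red for 1C-MIM and blue for scramble, with open circles for the libraries numbered 1 and triangles at the bottom for values under the axis floor. In every gene drawn the 3 red points lie to 1 side of all grey and blue points, with 1C-MIM replicate 1 below the other red points for Angptl7, Tnfsf11, Ramp1, Mmp13 and Thbd. Many of these genes were named by a rule that required no overlap between 1C-MIM and control.

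Falls among the 30 largest ran through cytoskeletal, matrix, channel and signalling genes. Stmn4, a stathmin that binds tubulin, had 4.25, 7.40 and 6.57 CPM in control and 0.634, 0.794 and 1.14 CPM in 1C-MIM (-2.81 ± 0.27, adjusted p = 1.9e-05). Col14a1, a collagen that associates with fibril surfaces, had 155, 100.3 and 116 CPM in control and 41.8, 30.6 and 26.8 CPM in 1C-MIM (-1.91 ± 0.22, adjusted p = 0.00027). Col8a2, a network-forming collagen, fell from 16.8 ± 2.4 to 3.59 ± 1.5 CPM (-2.23 ± 0.27). The 1C-MIM and control libraries did not overlap for any of the 30, as the rule for naming them required. Ak4, a mitochondrial adenylate kinase, had 23.9, 23.1 and 29.2 CPM in control and 6.09, 5.49 and 5.32 CPM in 1C-MIM (-2.17 ± 0.11, adjusted p = 4.1e-07). Kcnn4, a calcium-activated potassium channel, had 26.6, 32.2 and 33.7 CPM in control and 9.55, 8.60 and 7.84 CPM in 1C-MIM (-1.83 ± 0.10, adjusted p = 7.8e-07). Wnt10b, a Wnt ligand, had 19.5, 13.6 and 11.9 CPM in control and 4.09, 3.56 and 3.06 CPM in 1C-MIM (-2.07 ± 0.19, adjusted p = 1.3e-05), with control replicate 1 the highest library. Cdkn3, a phosphatase of cyclin-dependent kinases whose promoter is shown above, fell from 9.50 ± 2.0 to 2.18 ± 0.59 CPM (-2.13 ± 0.25), and Mki67, the proliferation marker, from 438 ± 57 to 209 ± 34 CPM (-1.07 ± 0.13). Bglap2, an osteocalcin gene, fell from 17.7 ± 3.9 to 5.01 ± 0.84 CPM (-1.82 ± 0.17), and Hr, a nuclear corepressor, from 37.6 ± 4.9 to 10.2 ± 1.5 CPM (-1.88 ± 0.12).

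Of 50 synaptic and neuronal genes tested, 13 fell and 8 rose (median -0.21). Together 42% were called, against 47.3% of all genes, so this list did not change more often than genes at large. Members at least 2-fold lower numbered 4, and the 2 at least 2-fold higher were Scg2 (3.39 ± 0.35) and Syt7. Tubb3, a neuronal tubulin, fell from 70.0 ± 17 to 21.2 ± 1.6 CPM (-1.72 ± 0.16, adjusted p = 3.8e-05), and the adhesion molecule gene L1cam fell from 29.1 ± 4.8 to 9.47 ± 0.72 CPM (-1.62 ± 0.12). Gap43, of growing axons, fell by 1.19 ± 0.18 on the log2 scale. The 12 neuron and Schwann cell markers summed to 66.5 to 98.8 CPM in control and 28.2 to 30.8 CPM in 1C-MIM before normalization, nearly all of it Tubb3 and Syn1. Of the 5 tested, 2 fell and 0 rose. Elavl4 was at 0 in every library, and Snap25 and Rbfox3 were at 0 in all control libraries and at most at 0.0345 CPM before normalization in 1C-MIM.

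Most of the 10 genes with the largest gain in counts encode proteins of the extracellular matrix. Summed over genes, 120609 CPM were gained and 88024 lost (103641 each when scaled by library size alone), and the 10 largest gains held 19.8% of the gain. Col3a1, a fibrillar collagen, had 6630, 5741 and 6208 CPM in control and 15267, 15593 and 15308 CPM in 1C-MIM (1.31 ± 0.07, adjusted p = 7.7e-07). Igfbp5, another carrier of insulin-like growth factors, had 2163, 2122 and 2014 CPM in control and 4703, 5552 and 5971 CPM in 1C-MIM (1.37 ± 0.09, adjusted p = 2.1e-06). Lrp1, an endocytic receptor, went from 2297, 2285 and 2305 CPM to 4148, 4727 and 4760 CPM (0.99 ± 0.07, adjusted p = 2.3e-06). The other gains were Col12a1 (0.79 ± 0.11), fibronectin (Fn1, 0.26 ± 0.07), the gelatinase gene Mmp2, the proteoglycan gene Vcan (1.24 ± 0.06), Col5a2 (0.80 ± 0.07), Sparc (0.46 ± 0.06) and the microfibril gene Fbn1 (0.81 ± 0.10). Of the 10, only Igfbp5 and Lrp1 encode proteins that are not structural, matricellular or matrix-degrading.

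Most of the tested fibroblast and tendon markers rose, among them Col3a1, which is also the largest gain above. Of the 14 listed, 10 were tested, 7 rose and 2 fell. Before normalization, their sum was 7253 to 8126 CPM in control and 16729 to 16963 CPM in 1C-MIM, most of it Col3a1. Tcf21 was at 0 in every library, and Thy1, Tnmd and Mkx did not pass 0.138 CPM before normalization in any control or 1C-MIM library. The tendon factor gene Scx fell by 0.43 ± 0.05. Before normalization, Ly6a was lower, at 264, 355 and 381 CPM in control and 208, 234 and 260 CPM in 1C-MIM. Col1a1 overlapped between the groups, at 741, 743 and 887 CPM in control and 894, 742 and 821 CPM in 1C-MIM. The part of such cells in the matrix gain was not tested.

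The losses were spread more widely, with 12.4% of the loss in the 10 largest. Vim, the intermediate filament vimentin, had 2732, 3710 and 3601 CPM in control and 1885, 1775 and 1647 CPM in 1C-MIM (-0.92 ± 0.11, adjusted p = 5.8e-05). Lgals1, a galectin, had 2186, 2877 and 2752 CPM in control and 1688, 1810 and 1798 CPM in 1C-MIM (-0.56 ± 0.10, adjusted p = 0.0012). Tubb5, a tubulin, went from 1014, 1250 and 1270 CPM to 667, 586 and 591 CPM (-0.94 ± 0.09, adjusted p = 1.6e-05). Among the 10 were also genes of glycolysis. Ldha, lactate dehydrogenase, had 1119, 1351 and 1438 CPM in control and 637, 655 and 647 CPM in 1C-MIM (-1.01 ± 0.10, adjusted p = 1.9e-05). Pgk1, phosphoglycerate kinase, had 817, 1049 and 1109 CPM in control and 421, 441 and 442 CPM in 1C-MIM (-1.19 ± 0.12), and the pyruvate kinase gene Pkm fell by 0.72 ± 0.08. Eno1 and Eno1b, near-identical copies whose counts were almost equal in each library, are in effect 1 measurement of enolase (-0.85 ± 0.12). Control replicate 1 was the lowest control for Vim, Lgals1, Tubb5, Ldha and Pgk1. Spp1, osteopontin, had the largest loss (-0.45 ± 0.13, adjusted p = 0.016), and its call did not hold with control replicate 2 (log2 fold change -0.39), control replicate 3 (-0.38) or 1C-MIM replicate 1 (-0.34) left out.

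**Figure D3:**
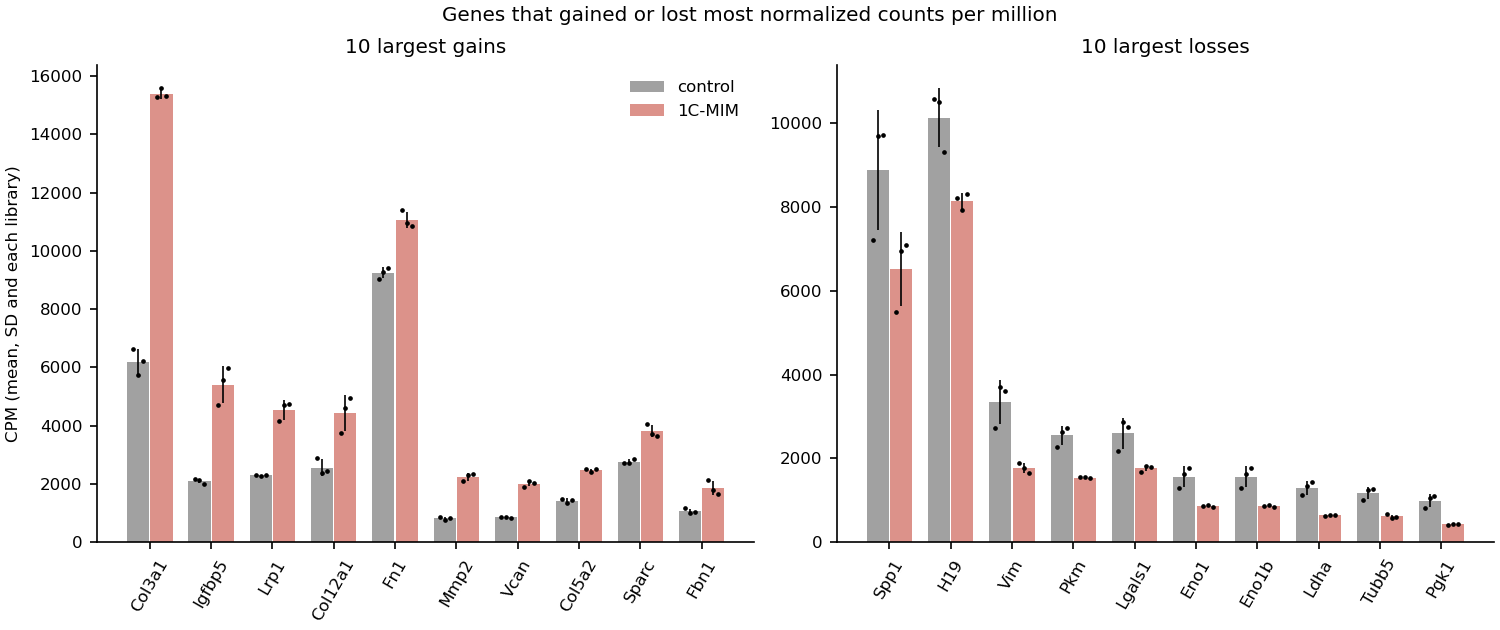
Normalized CPM in control (grey) and 1C-MIM (red) for the 10 genes with the largest gain and the 10 with the largest loss, as bars for the mean, lines for the SD and dots for each of 3 libraries. Col3a1 stands at 6193 against 15390 CPM, and Eno1 and Eno1b, near-identical copies, have almost equal counts.

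Transcripts of the 10 gaining genes were long, with a median of 7.52 kb, and those of the losing genes short, at 1.80 kb, against 2.81 kb over all tested genes. CPM are not divided by length. Over all genes the median log2 fold change was between -0.03 and 0.02 in each of 6 length classes, while the share called higher was larger in each longer class, from 18.2% under 1 kb to 27.7% over 6 kb. The share called lower was 19.1% under 1 kb, 26.8% at 1 to 2 kb and 22.5% over 6 kb. The part of length in the gains was not tested.

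Among 36 functional gene groups, proteases had the highest median log2 fold change. ADAM and ADAMTS enzymes cut matrix proteins and shed membrane proteins, and the list also holds other secreted and membrane proteases. Of 48 tested, 25 rose and 8 fell. Their median log2 fold change was 0.33, against -0.01 over all genes, and 15 were at least 2-fold higher while 0 were at least 2-fold lower. Adamts15, an aggrecan- and versican-cleaving enzyme, had 0.629, 0.464 and 0.357 CPM in control and 5.28, 5.63 and 7.91 CPM in 1C-MIM (3.69 ± 0.26, adjusted p = 2.5e-06). Adamts16 had 9.13, 5.76 and 5.74 CPM in control and 41.4, 36.4 and 36.4 CPM in 1C-MIM (2.47 ± 0.19, adjusted p = 8.4e-06). Htra1, an abundant secreted serine protease, had 237, 232 and 221 CPM in control and 535, 581 and 586 CPM in 1C-MIM (1.30 ± 0.05, adjusted p = 1.3e-07). The 1C-MIM and control libraries did not overlap for any of these, which the naming rule required for Adamts15 and Adamts16. A pair of membrane peptidases that trim peptide hormones rose as well, Enpep from 6.67 ± 2.1 to 38.7 ± 3.3 CPM (2.54 ± 0.17) and Mme, neprilysin, from 2.25 ± 0.25 to 7.73 ± 0.19 CPM (1.78 ± 0.13). Adam12 (1.63 ± 0.14) and Prss35 (3.46 ± 0.31) were further members. Without control replicate 2 or 1C-MIM replicate 3, 5 members fell.

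Axon guidance genes, which cells outside the nervous system also use for positioning and adhesion, leaned the same way: 22 of 41 rose and 6 fell (median 0.22). Plxna1, a semaphorin receptor, had 201, 199 and 196 CPM in control and 349, 359 and 377 CPM in 1C-MIM (0.86 ± 0.06, adjusted p = 2.0e-06). Slit2, a secreted repellent, rose by 0.84 ± 0.09 and its receptor gene Robo2 by 1.84 ± 0.17, while the related plexin gene Plxna4 fell by 1.89 ± 0.30. Of 35 nuclear receptor genes 15 rose and 2 fell (median 0.17, and 4 fell without the 3 libraries numbered 1). Vdr, the vitamin D receptor, had 84.7, 83.6 and 97.0 CPM in control and 216, 258 and 266 CPM in 1C-MIM (1.48 ± 0.08, adjusted p = 8.3e-07). Nr4a1 rose by 1.34 ± 0.24 and Nr4a3 by 1.93 ± 0.31, each with 1C-MIM replicate 1 the lowest of its group. Nr3c1, the glucocorticoid receptor, fell by 0.35 ± 0.04 and Rarg by 0.41 ± 0.05, and these were the 2 that fell.

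On the lower side, S100 proteins, annexins and galectins had the lowest median. These calcium- and sugar-binding proteins act at membranes and in the cortex of the cell. Of 36 tested 25 fell and 3 rose (median -0.43). Anxa8 had 97.3, 88.7 and 87.5 CPM in control and 43.3, 37.6 and 33.3 CPM in 1C-MIM (-1.26 ± 0.10, adjusted p = 6.4e-06). Lgals3 had 676, 797 and 748 CPM in control and 418, 454 and 425 CPM in 1C-MIM (-0.78 ± 0.07, adjusted p = 8.8e-06). Cast, the calpain inhibitor calpastatin that this list also holds, fell by 0.73 ± 0.05. S100a3 was the only S100 gene at least 2-fold lower (-1.99 ± 0.23), and S100g, at 0.164 CPM in control and 0.827 CPM in 1C-MIM, was the member at least 2-fold higher. Among symbol families of at least 8 tested genes, Anxa genes gave 7 lower of 10 and 0 higher (1 higher with DESeq2 or without control replicate 1).

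Ion channels for sodium, calcium and chloride, listed with TRP and ligand-gated channels, showed few rises. Of 58 tested, 22 fell and 2 rose (median -0.20), and 10 were at least 2-fold lower. Among these 10, Scn3b, Scn9a, Cacna1d, Cacna1g, Trpm3 and Asic3 had control means of only 0.319 to 0.879 CPM. Gria1, a glutamate receptor channel, fell from 6.39 ± 1.0 to 2.23 ± 0.16 CPM (-1.52 ± 0.18). Scn2a1, a sodium channel, had 3.59 CPM in control replicate 1, 1.24 and 1.19 CPM in the other controls, and 0.669, 0.414 and 0.404 CPM in 1C-MIM (-2.01 ± 0.48). The number of channels called higher depended on the libraries: it was 0 with library size scaling, 6 without control replicate 1, 11 without the 3 libraries numbered 1, 1 without control replicate 3, 1C-MIM replicate 1 or 1C-MIM replicate 3, and 0 without control replicate 2 or 1C-MIM replicate 2. Potassium channels went both ways, 8 higher and 6 lower of 28, with Kcnn3 higher by 1.32 ± 0.26 and Kcnk13 by 2.47 ± 0.34. Of 12 carbonic anhydrase genes 2 rose and 5 fell. Car9, a membrane isoenzyme known as a hypoxia target, fell from 119.9 ± 14 to 38.2 ± 4.2 CPM (-1.65 ± 0.14), and the cytosolic Car2 rose from 12.9 ± 2.4 to 46.4 ± 4.3 CPM (1.85 ± 0.13).

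The primary cilium, an organelle that carries Hedgehog signals, and DNA repair had more falls than rises. Of 66 cilium and Hedgehog genes 26 fell, 3 rose and 37 were not called (median -0.14). Ift43, of the transport train inside the cilium, had 33.0, 36.8 and 34.4 CPM in control and 19.6, 19.6 and 19.1 CPM in 1C-MIM (-0.84 ± 0.06, adjusted p = 2.0e-06). Hhip, a decoy receptor and Hedgehog target, fell from 15.6 ± 2.1 to 4.48 ± 0.70 CPM (-1.80 ± 0.14), while Gas1, a Hedgehog co-receptor, rose from 923 ± 40 to 1695 ± 81 CPM (0.88 ± 0.06). Of 89 DNA repair genes 38 fell and 11 rose (median -0.21, and 7 rose under library size scaling). Neil3, a glycosylase, fell from 19.4 ± 0.96 to 9.16 ± 0.75 CPM (-1.08 ± 0.08, adjusted p = 4.7e-06), and Brca2 fell by 0.55 ± 0.08. The formin gene Diap3 fell from 78.3 ± 13 to 35.3 ± 2.3 CPM and Tagln2, a small actin-binding protein, had 279, 379 and 405 CPM in control and 168, 152 and 153 CPM in 1C-MIM (-1.17 ± 0.13).

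**Figure D4:**
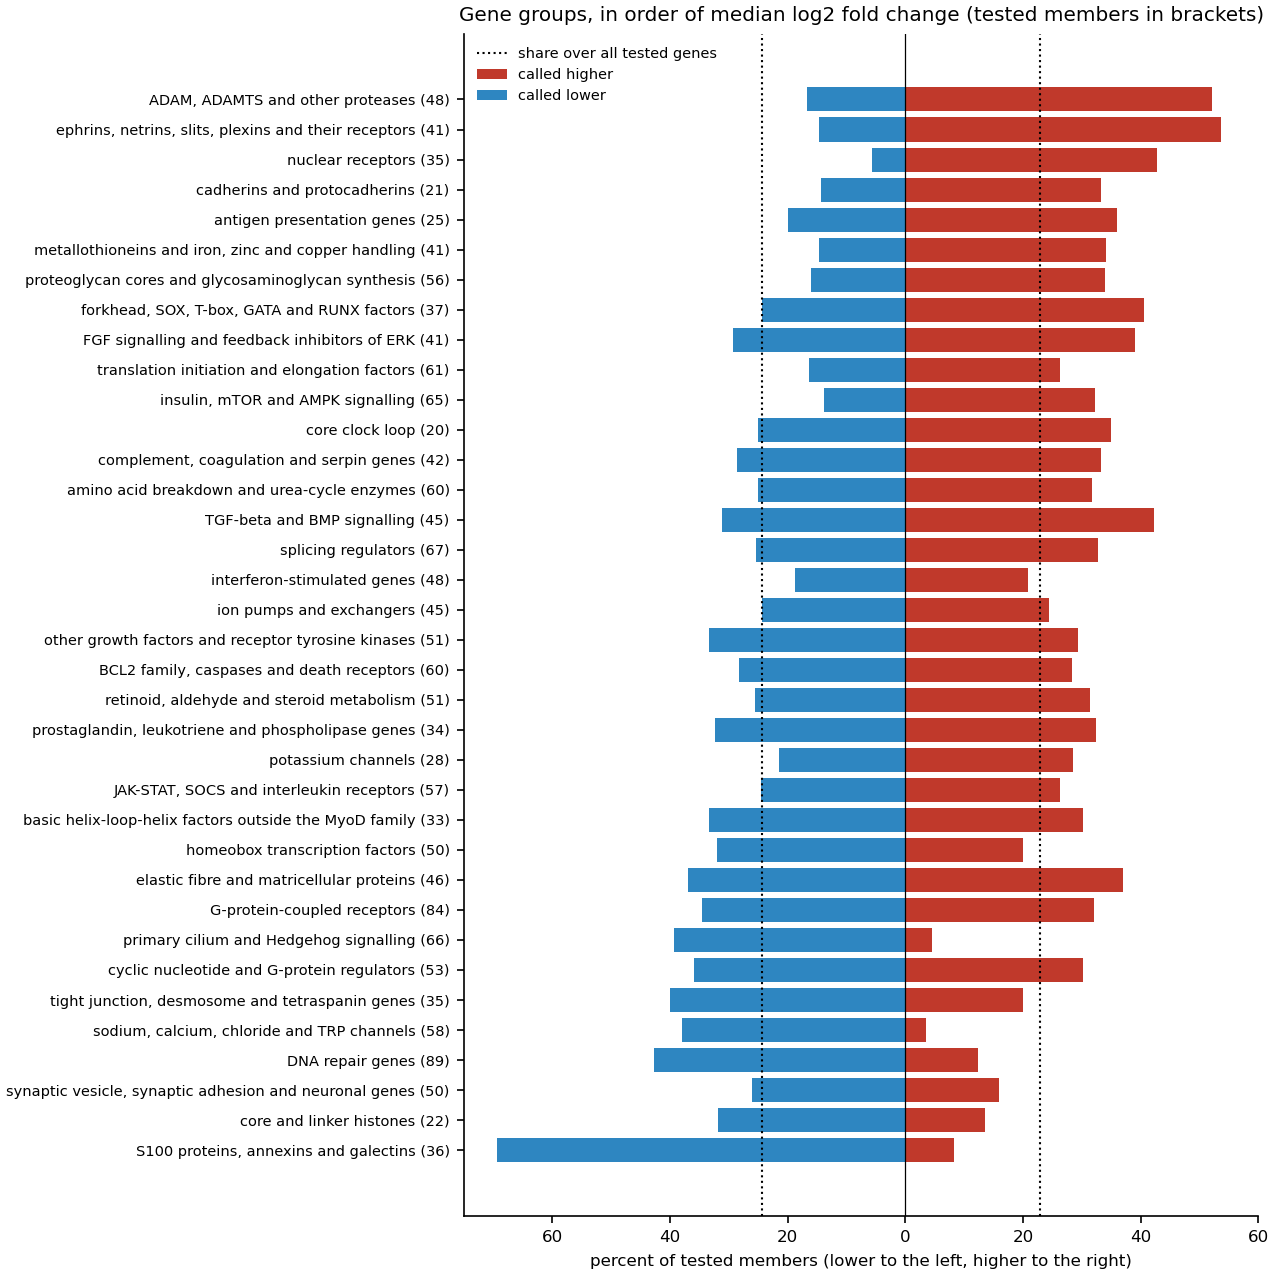
Percent of the tested members of each of 36 gene groups called higher (red, to the right) and lower (blue, to the left) with 1C-MIM, in order of median log2 fold change, with dotted lines at the shares over all genes (22.9 and 24.3). Proteases head the list with 25 of 48 higher, and S100 proteins, annexins and galectins close it with 25 of 36 lower.

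Receptors and signalling pathways changed in many members with no common direction. Of 84 G-protein-coupled receptor genes 27 rose and 29 fell, and 12 were at least 2-fold higher and 8 at least 2-fold lower. S1pr1, a sphingosine 1-phosphate receptor, had 54.2, 57.4 and 57.4 CPM in control and 137, 163 and 159 CPM in 1C-MIM (1.44 ± 0.07, adjusted p = 2.1e-07). Cnr1, the cannabinoid receptor, rose from 3.00 ± 0.75 to 13.1 ± 0.39 CPM (2.13 ± 0.16), and Lgr6, a receptor of R-spondins, fell from 16.6 ± 2.2 to 5.32 ± 1.5 CPM (-1.64 ± 0.18). Among regulators of cyclic nucleotides 16 of 53 rose and 19 fell. The phosphodiesterase genes Pde2a (1.93 ± 0.22) and Pde7b (1.21 ± 0.06) rose and Pde5a fell (-0.75 ± 0.05), and of the G-protein brakes Rgs16 rose (1.49 ± 0.10) and Rgs4 fell (-1.43 ± 0.21).

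TGF-beta and BMP genes counted 19 higher and 14 lower of 45. Tgfbr3, a co-receptor, had 46.7, 39.0 and 37.0 CPM in control and 107, 114 and 105 CPM in 1C-MIM (1.41 ± 0.08, adjusted p = 7.9e-07), and Smad3 rose by 0.74 ± 0.06. Members of the BMP branch went both ways. The ligand gene Bmp6 rose from 0.310 to 3.46 CPM (3.47 ± 0.37), the antagonist gene Nog fell (-1.67 ± 0.20), and Smad9, a BMP effector, fell from 4.65 ± 0.28 to 1.16 ± 0.29 CPM. Of 41 FGF pathway genes 16 rose and 12 fell: the receptor gene Fgfr4 rose from 34.4 ± 3.5 to 87.0 ± 2.4 CPM (1.34 ± 0.07), and Fgf5 (-2.21 ± 0.16) and the ERK-responsive factor gene Etv4 (-1.41 ± 0.13) fell. Gfra1, a GDNF receptor, had 80.4, 78.5 and 80.1 CPM in control and 226, 297 and 293 CPM in 1C-MIM (1.77 ± 0.10, adjusted p = 8.9e-07).

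Transcription factor groups gave smaller tilts. Of 50 homeobox genes 10 rose and 16 fell, and 6 were at least 2-fold lower with 0 at least 2-fold higher. Dlx3 had 34.0, 41.1 and 44.5 CPM in control and 13.4, 15.4 and 15.8 CPM in 1C-MIM (-1.42 ± 0.10, adjusted p = 2.4e-06). Of 37 forkhead, SOX, T-box, GATA and RUNX genes 15 rose and 9 fell, led by Sox8, which had 16.2, 12.7 and 13.4 CPM in control and 55.3, 54.8 and 55.5 CPM in 1C-MIM (1.97 ± 0.12, adjusted p = 1.4e-06). The MYC relative gene Mycl rose from 26.5 ± 1.8 to 86.4 ± 4.6 CPM (1.71 ± 0.09). In the core clock loop 7 of 20 rose and 5 fell: Per2 rose by 0.85 ± 0.09, while Per3 fell by 1.05 ± 0.12 and Npas2 by 2.15 ± 0.31. Of the 10 bone and cartilage markers tested 1 rose and 4 fell, with Phex higher (1.59 ± 0.13) and the osteoblast factor gene Sp7 lower, from 0.512 to 0.0459 CPM.

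As a symbol family, Col genes counted 10 higher and 9 lower of 36 (median -0.04), with 2 at least 2-fold higher and 6 at least 2-fold lower. Matrix regulators around the collagens split as well. Elastic fibre and matricellular genes counted 17 higher and 17 lower of 46. Postn, periostin, had 124, 101 and 122 CPM in control and 297, 279 and 289 CPM in 1C-MIM (1.32 ± 0.07, adjusted p = 5.7e-07), whereas the crosslinking enzyme gene Lox fell from 919 ± 66 to 542 ± 24 CPM (-0.76 ± 0.08) and Ctgf, a matricellular growth regulator, from 88.6 ± 12 to 26.6 ± 8.7 CPM (-1.74 ± 0.21). Among proteoglycan and glycosaminoglycan genes 19 of 56 rose and 9 fell. Sulf2, which edits heparan sulphate, rose from 115 ± 8.3 to 334 ± 20 CPM (1.54 ± 0.06), and Cspg4, a membrane chondroitin sulphate proteoglycan, fell by 1.79 ± 0.11. In amino acid breakdown Gpt2, the mitochondrial alanine aminotransferase, had 62.6, 49.5 and 45.6 CPM in control and 261, 225 and 264 CPM in 1C-MIM (2.25 ± 0.12, adjusted p = 1.1e-06), and Ass1, argininosuccinate synthase, fell by 1.57 ± 0.07. That group as a whole had 19 higher and 15 lower of 60. Of 65 insulin, mTOR and AMPK genes 21 rose and 9 fell, with the mTOR inhibitor gene Ddit4l at 7.90, 8.02 and 8.09 CPM in control and 31.8, 37.4 and 38.6 CPM in 1C-MIM (2.17 ± 0.08, adjusted p = 1.0e-07).

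Other groups had both rises and falls. Interferon-stimulated genes had 10 higher and 9 lower of 48 (39.6% called), and genes of BCL2 proteins, caspases and death receptors 17 and 17 of 60. Splicing regulators had 22 higher and 17 lower of 67 (58.2% called), and JAK-STAT and interleukin receptor genes 15 and 14 of 57. Translation factors counted 16 higher and 10 lower of 61, which turned to 9 and 16 under scaling by library size only. Without 1C-MIM replicate 3, 10 rose, and without control replicate 1, 16 fell. Iron, zinc and copper genes had 14 higher and 6 lower of 41, but 7 higher with library size alone and 8 or 9 when any control or 1C-MIM library other than control replicate 1 was left out. Within that list the ferritin heavy chain gene Fth1 rose from 1549 ± 53 to 2289 ± 31 CPM (0.56 ± 0.05) and the light chain gene Ftl1 fell from 749.8 ± 96 to 531 ± 27 CPM (-0.50 ± 0.09).

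Genes were also grouped by the letters of their symbols, with no list chosen, which gave 219 families of at least 8 tested members and 4291 genes. Adamts genes counted 10 of 14 higher and 1 lower (median 0.77), the Gbp genes described below 6 of 10 higher and 0 lower. Rrp genes, of ribosomal RNA processing, counted 6 higher of 8, Tmed genes, of cargo exit from the endoplasmic reticulum, 5 of 9, and Coq genes, of coenzyme Q synthesis, 5 of 9, with none called lower in each. Their changes were small, for example Rrp1b at 0.48 ± 0.05 and Tmed1 at 0.45 ± 0.06, and 1 Coq gene was called lower with library size scaling or without control replicate 1 or control replicate 2. To the lower side lay Haus genes, of the augmin complex that builds spindle microtubules, with 6 of 8 lower. Mcm genes, which include those of the replicative helicase, had 7 of 10 lower. Kif genes, the kinesin motors, counted 19 of 34 lower and 2 higher. Kif20b fell from 58.6 ± 6.9 to 26.6 ± 1.7 CPM (-1.14 ± 0.10). Only 2 Mcm genes were called when either of control replicates 2 and 3, or of 1C-MIM replicates 2 and 3, was left out. Klf genes counted 8 lower and 2 higher of 13, with Klf4 at 76.4, 79.8 and 86.6 CPM in control and 47.1, 48.3 and 46.9 CPM in 1C-MIM (-0.77 ± 0.06, adjusted p = 3.0e-06).

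Genes that changed by at least 2-fold had neighbours that changed the same way more often than placed genes at large, though most of their neighbours did not. Placed by RefSeq gene order, 13927 tested genes formed 13907 neighbouring pairs, of which 44 had both members at least 2-fold higher, 72 both at least 2-fold lower and 26 one of each. Of the neighbours of a 2-fold higher gene, 11.2% were also 2-fold higher, against 2.82% of placed genes, and of the neighbours of a 2-fold lower gene 12.1% were also 2-fold lower, against 4.29%. With overlapping gene bodies left out, these shares were 9.63% and 9.90%. Near-identical neighbours can share reads, so such pairs are not independent measurements.

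The longest higher runs were chemokines and guanylate-binding proteins on chromosome 5. In gene order the first was Cxcl5, Ppbp, Pf4, Cxcl15 and Cxcl1. Cxcl1, a neutrophil attractant, had 9.19, 11.2 and 10.2 CPM in control and 32.5, 49.6 and 49.5 CPM in 1C-MIM (2.10 ± 0.17, adjusted p = 1.2e-05), and Ppbp rose from 1.23 to 4.62 CPM (1.91 ± 0.24). Cxcl15, at under 1 CPM, lost its call with DESeq2 and without each library in turn other than 1C-MIM replicate 3. The second run was Gbp8, Gbp9, Gbp4, Gbp10, Gbp6 and Gbp11, interferon-inducible GTPases of near-identical sequence whose counts are uncertain one by one. Gbp4 had 16.6, 12.1 and 11.5 CPM in control and 51.1, 43.2 and 43.7 CPM in 1C-MIM (1.78 ± 0.13, adjusted p = 4.1e-06). Other interferon-stimulated genes went both ways. Among them Zbp1 (1.80 ± 0.26) and Ifitm1 (1.27 ± 0.22) rose, and Rtp4 (-1.40 ± 0.15), Ifit2 (-0.66 ± 0.07) and Samhd1 (-0.63 ± 0.05) fell.

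Shorter higher runs held the carboxypeptidase genes Cpa4, Cpa5 and Cpa1, the C-type lectin-domain pair Thbd and Cd93, and the matrix proteoglycans Dcn and Lum. Thbd, thrombomodulin, had 60.5, 59.2 and 57.7 CPM in control and 162, 369 and 454 CPM in 1C-MIM (2.47 ± 0.35, adjusted p = 0.0011), with 1C-MIM replicate 1 the lowest as it was for Cd93. Both are known from endothelium, whose 12 markers summed to 1.78 to 2.56 CPM in control and 4.48 to 5.11 CPM in 1C-MIM before normalization. Of these markers the 2 tested, Tek and Egfl7, rose, and 4 were at 0 in every library. Lower runs held the keratin genes Krt13, Krt19 and Krt14, the serpin genes Serpinb7, Serpinb2 and Serpinb8, the homeobox pairs Dlx1 with Dlx2 and Hoxb3 with Hoxb4, and the connexin genes Gja3 and Gjb2. Krt19 fell from 16.3 ± 2.9 to 2.31 ± 0.082 CPM (-2.82 ± 0.14, adjusted p = 4.1e-07), and Krt14 fell by 2.76 ± 0.43 on the log2 scale. Gja3 fell from 2.07 ± 0.20 to 0.334 ± 0.058 CPM (-2.62 ± 0.22). Krt13 was not called with control replicate 2 or 3 or 1C-MIM replicate 1 or 3 left out, nor Hoxb3 with DESeq2 or with any replicate numbered 2 or 3 left out. By chromosome, the share of genes called ran from 42% on chromosome X to 52.6% on chromosome 3.

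**Figure D5:**
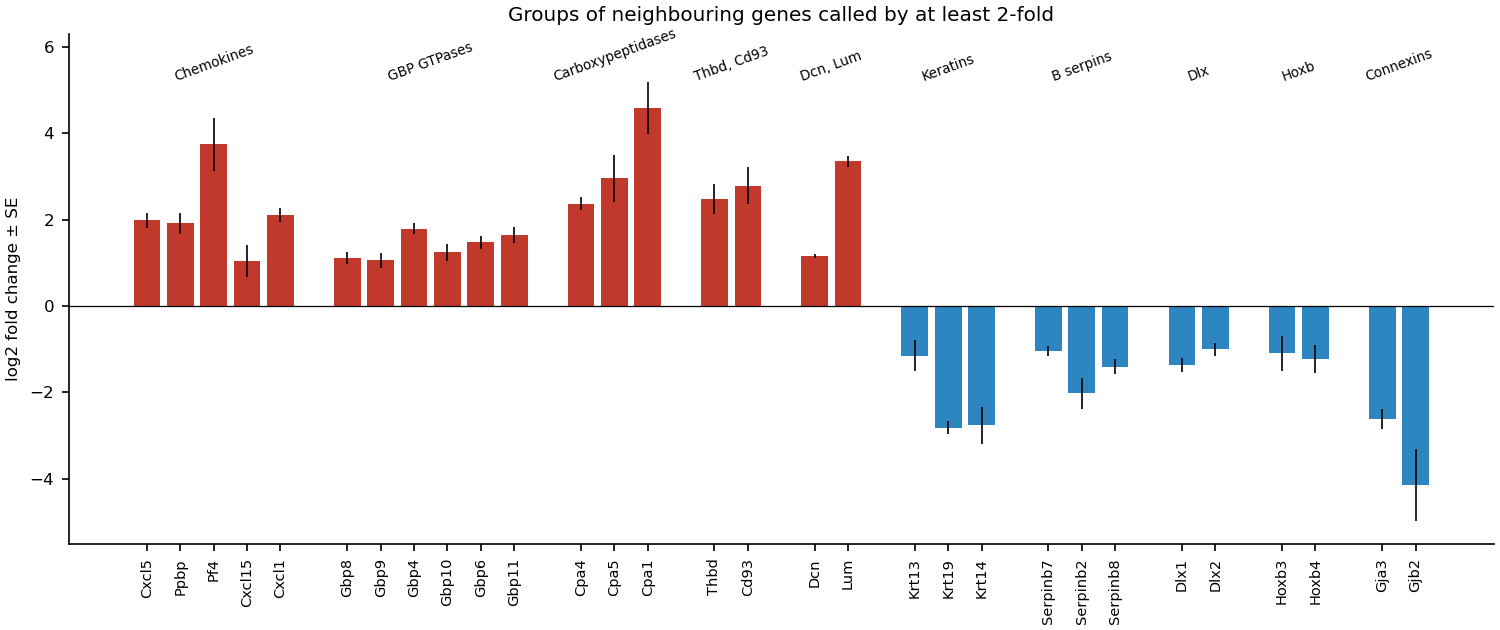
Log2 fold change of 1C-MIM against control (bars, with the standard error as lines) for 10 groups of neighbouring genes called by at least 2-fold, in gene order within each group. The 6 Gbp genes lie between 1.06 and 1.78, and Gja3 and Gjb2 at -2.62 and -4.14.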

How the data were processed

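Per the labels' protocols, libraries were made from 1.3 µg of column-purified total RNA with SMARTer chemistry. Tools named by the submitters' processing notes include Trim Galore 0.6.7, STAR, Salmon 1.5.2 and Subread 2.0.1, without roles, with build GRCm39, and no source used here states strand use. The deposited counts are whole numbers per RefSeq transcript (33984 transcripts, 24063 symbols), not normalized by the authors. The deposited FPKM served only to recover transcript length, and the deposited TPM were not tested.

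Each symbol was represented by its transcript of highest mean count over 9 libraries, because shared exons are counted under each transcript. Genes passing filterByExpr (14006) were fitted with edgeR 4.0.16 (TMM, robust quasi-likelihood, all 9 libraries, R 4.3.3). CPM are normalized unless stated. The step was tested on simulated data. Genes were called at an adjusted p below 0.05. Named are the 30 largest rises and falls of at least 5 CPM without overlap, the 10 largest gains and losses in CPM, genes going from under 0.2 to at least 1 CPM or back, the 5 smallest p and 2-fold members of each list, the widest spreads, up to 3 genes per family, and neighbouring genes, leaving out predicted genes. Histones, ribosomal proteins, olfactory and vomeronasal receptors were also left out of the largest changes, the CPM gains and losses, and the near-absent genes. The members and lists were chosen with earlier results of these data known. Gene order came from RefSeq (GRCm38.p6). Alternatives were other scalings and filters, DESeq2 1.42.0, limma 3.58.1, a replicate block and left-out libraries. Some genes and 1 gene group are not reported here.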

Additional observations from a re-analysis of the deposited data

How the results depend on the processing

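The number of called genes was 6621 and stayed within 1.5 times that under every alternative run: 6624 with RLE scaling, 6572 with upper quartile scaling, 6569 with library size alone (2606 higher and 3963 lower), 6417 with no filter on low counts, 6539 with DESeq2, 6607 with limma-voom, 6032 with the 6 libraries alone, 6630 with the mean over transcripts and 4618 at an adjusted p below 0.01. Leaving out 1 library at a time gave 5487 to 7195 calls, and leaving out the 3 libraries numbered 1 gave 7918. With the replicate number as a block 7397 genes were called. Same-numbered control and 1C-MIM libraries deviated from their group means together with correlations of 0.19, 0.084 and 0.10. Differently numbered ones gave -0.18 to 0.11, and control replicate 2 correlated best with 1C-MIM replicate 3 (0.11). The libraries numbered 1 stood apart on the second principal component in all 3 groups. The main fit did not take the numbers as pairs, and whether same-numbered libraries shared a batch was not tested. Of 610 named genes 601 were called, 563 of these in each of the 6 fits that left out 1 control or 1C-MIM library, 12 lost their call with DESeq2, and none of those fitted changed direction under the alternatives run. Low counts limit the genes under 1 CPM, where the median standard error was 0.38.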
